A study of Homo sapiens with 19 samples.

Results

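TMD8 is an established human cell line of diffuse large B cell lymphoma of the activated B-cell-like type. The data described here are its 3 RNA-seq libraries, out of 19 samples in the series: cells transduced with a control hairpin (named sc4 in the table), with shEGR1#8 or with shEGR1#9, each hairpin switched on with doxycycline at 20 ng/ml for 2 days. The comparison asks which transcripts differed once hairpins against EGR1 had been expressed. The labels do not say whether a clone or a pool of transduced cells was used, and there was 1 library per hairpin, so no TMD8 difference below has a replicate check and none has a p-value. Genes were kept if they reached 1 FPKM in any of the 3 libraries and were not short RNA genes, which left 11529 of the 25267 genes of the table. Of these, 10019 reached 1 FPKM in all 3 libraries, 131 in the control library alone, and 1097 only in 1 or both hairpin libraries. FPKM, fragments per kilobase of transcript and library size, is a level per length, read here from the values because the header names no unit. The RNA-seq libraries labelled SUDHL2 and OCI-LY10, set beside TMD8 below, had the same hairpins, doxycycline dose and time.

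EGR1 is a zinc-finger transcription factor of the immediate early class, made within minutes of signals such as B-cell receptor engagement. It switches on its own corepressor NAB2 and belongs to a family whose members recognise the same GC-rich site. Activated B-cell-like lymphomas depend on chronic B-cell receptor, MYD88 and NF-kB signalling, and many also carry an autocrine type I interferon loop. In that loop, interferon bound to its receptor activates transcription factors that bind interferon-stimulated response elements in the promoters of antiviral genes.

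EGR1 mRNA was not lower in either library labelled with an EGR1 hairpin. Its deposited level was 7.31 FPKM in the control library, 10.8 in shEGR1#8 and 9.95 in shEGR1#9. The control library therefore held the lowest EGR1 level of the 3. In the libraries labelled SUDHL2, a line given the same 3 hairpins, EGR1 was 17, 13.7 and 15.4 FPKM in the same order, highest in the control, with differences of -0.28 and -0.12 on the scale defined next. After both hairpin columns were multiplied by a factor that brings them to the control's scale (1.16 for shEGR1#8 and 1.08 for shEGR1#9), the differences on log2(scaled FPKM + 1) were 0.70 and 0.49. The same scale is used for every TMD8 difference below, and the levels given are scaled FPKM unless called deposited; OCI-LY10 levels are as deposited. Since the targeted mRNA goes against the labels, the libraries are named below by their labels, and each direction holds for the libraries so labelled.

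The control library stood apart from both hairpin libraries in a way that no hairpin label describes. Replication-dependent histone mRNAs, which end in a stem-loop and carry no poly(A) tail, summed to 608 FPKM as deposited in the control, 2604 in shEGR1#8 and 6095 in shEGR1#9. RMRP, the RNA of the ribonuclease MRP complex, was deposited at 85.5, 7618 and 17751 FPKM. RPPH1, the RNA of ribonuclease P, was deposited at 30.6, 3490 and 10427 FPKM, and TERC, the telomerase RNA, at 0.45, 23 and 52.3 FPKM. The control was thus the lowest of the 3 libraries for each of these tail-less RNAs, and shEGR1#9 the highest. In the SUDHL2 libraries the control was not low: histone sums were 2165, 1658 and 2110 FPKM in control, shEGR1#8 and shEGR1#9. In OCI-LY10, an activated B-cell-like line with 9 libraries, all were low, with histone sums between 205 and 331 FPKM. Short RNA genes took 36.3% of all FPKM in the TMD8 control, 62.1% in shEGR1#8 and 58% in shEGR1#9. The values of genes under 0.08 FPKM also moved in the same read-sized steps in both hairpin libraries (87.6% of 105 genes had a whole-number ratio), but not in the control and a hairpin library (10.4% of 173 and 8.09% of 371 genes). With 1 control library, the hairpin and whatever made this library different cannot be told apart, and the control cannot be left out.

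**Figure D1:**
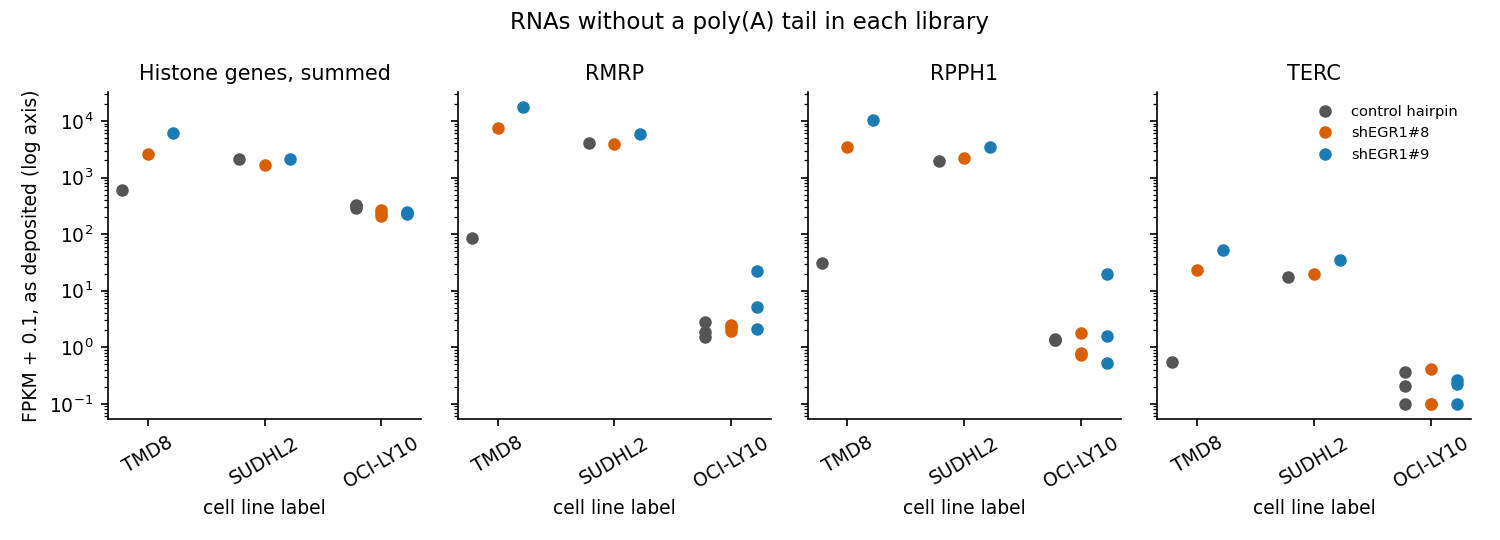
Deposited FPKM plus 0.1 (log axis) of RNAs without a poly(A) tail, 1 point per library, by cell line label and hairpin. The TMD8 control lies far below both TMD8 hairpin libraries and all 3 SUDHL2 libraries for RMRP, RPPH1 and TERC, and the 9 OCI-LY10 libraries lie at or below it.

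The labelled cell types could be checked only in part. All 13 B cell markers on the list were members, while 4 of 22 T and NK cell markers, 4 of 17 myeloid, 6 of 14 fibroblast and epithelial and 1 of 12 erythroid and endothelial markers were. The summed level of the B cell markers was 1877, 1750 and 2202 FPKM in control, shEGR1#8 and shEGR1#9, and that of the myeloid markers 39.5, 54.8 and 64.2. T and NK cell markers summed to 179, 239 and 248 FPKM, and fibroblast and epithelial markers to 214, 154 and 205. Erythroid and endothelial markers summed to 0.281, 0.628 and 1.81 FPKM. The libraries labelled TMD8 and SUDHL2 were hardly separable: between 1 and 6 genes stood at 10 FPKM or more in one library and under 0.1 in the other, against 3 within TMD8 and 140 to 176 between TMD8 and OCI-LY10. Across 10905 genes, Spearman's rho was 0.927 to 0.975 within TMD8, 0.89 to 0.97 between TMD8 and SUDHL2, and 0.716 to 0.788 between TMD8 and OCI-LY10. The short RNA share of FPKM was also far lower in OCI-LY10, at 0.471 to 0.615% against 36.3 to 62.1% in TMD8. Cell line and this difference in the libraries cannot be told apart in the OCI-LY10 comparison. Because TMD8 and SUDHL2 were hardly separable, values from the SUDHL2 label are set beside those of TMD8 without treating it as a separate line.

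Across all members, shEGR1#8 stood at least 2-fold above the control for 899 genes (7.8%) and at least 2-fold below it for 459 (3.98%). In shEGR1#9 the corresponding counts were 443 (3.84%) and 622 (5.4%). Both libraries were at least 2-fold above the control for 264 genes (2.29%) and at least 2-fold below for 324 (2.81%). These 2 comparisons share the control library, so their common genes also carry whatever is particular to it. Between the hairpin libraries themselves, 375 genes (3.25%) were at least 2-fold apart, 144 higher in shEGR1#9 and 231 higher in shEGR1#8. The median absolute difference was 0.38 for shEGR1#8 and 0.40 for shEGR1#9 against the control, and 0.25 between the hairpin libraries. The median signed difference was 0.09 with each hairpin, so the scaling left members slightly above the control on the whole. The split depended on the scaling: with FPKM as deposited, 204 genes were higher and 553 lower with both hairpins, and with equal totals 442 were higher and 149 lower.

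**Figure D2:**
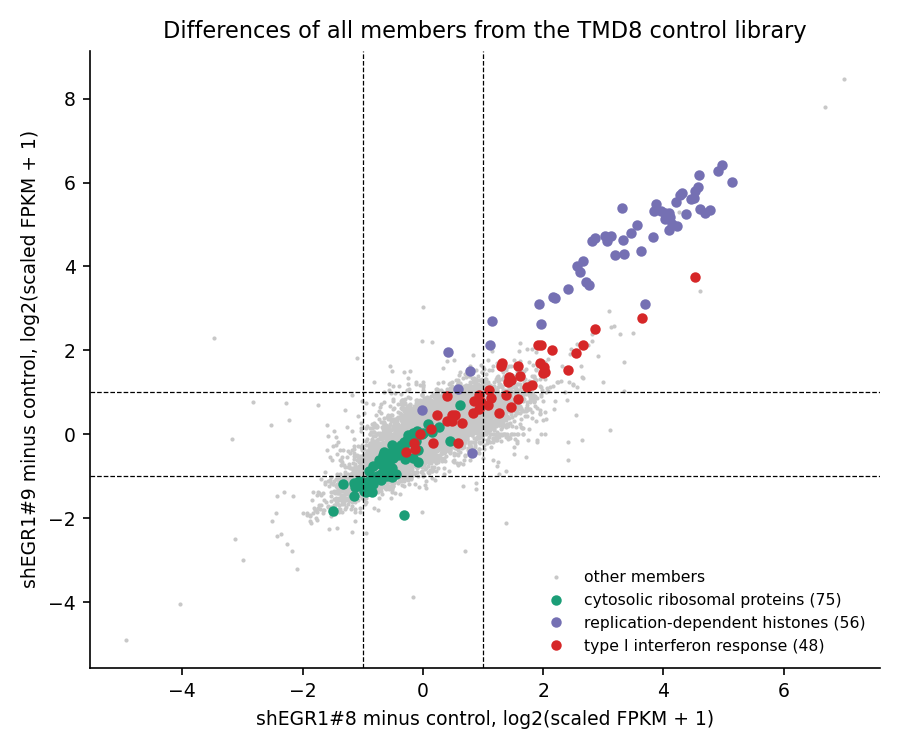
Each point is a member, with its shEGR1#8 difference from control on the x axis and its shEGR1#9 difference on the y axis, both on log2(scaled FPKM + 1). Dashed lines mark 2-fold. Histone genes (56) spread toward the upper right, interferon-response genes (48) lie mostly above 0 on both axes, and cytosolic ribosomal protein genes (75) mostly below it.

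Of the gene lists, interferon-response genes held the most members at least 2-fold above the control after the histones. Of 48 members of this list, 23 were at least 2-fold higher with both hairpins and none at least 2-fold lower. The shares over all members were 2.29% and 2.81%. Of the 48, 42 stood above the control in both libraries and 4 below it, beside 5353 and 3848 of all 11529 members. The list's median difference was 1.30 with shEGR1#8 and 0.95 with shEGR1#9, beside 0.09 over all members, and over 4 scalings it ran from 1.10 to 1.5 and from 0.85 to 1.15. Because the promoters of these genes are known for a shared element, the RefSeq promoter windows (build GRCh38.p14, 250 bases before to 50 after the start) were searched for the letters GAAANNGAAA on both strands. The stretches that hold them are shown for 5 of the genes higher with both hairpins, in the direction of transcription, with the matched letters in capitals (TTTC marks a match on the other strand).
IFI6, chr1:27672246-27672378, minus strand: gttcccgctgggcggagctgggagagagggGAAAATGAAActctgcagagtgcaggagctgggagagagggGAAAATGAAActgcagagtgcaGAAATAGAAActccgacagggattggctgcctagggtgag
IFI27, chr14:94110598-94110680, plus strand: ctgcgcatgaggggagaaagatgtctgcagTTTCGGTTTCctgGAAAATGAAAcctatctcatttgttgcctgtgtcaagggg
IFIT1, chr10:89392477-89392559, plus strand: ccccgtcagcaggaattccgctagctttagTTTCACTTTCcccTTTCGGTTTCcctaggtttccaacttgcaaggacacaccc
IFIT3, chr10:89327811-89327914, plus strand: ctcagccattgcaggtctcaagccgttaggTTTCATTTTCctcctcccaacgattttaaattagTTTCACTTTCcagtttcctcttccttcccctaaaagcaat
ISG15, chr1:1013354-1013429, plus strand: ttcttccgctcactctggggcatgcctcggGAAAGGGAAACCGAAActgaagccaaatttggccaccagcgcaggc
IFI6 holds 3 matches, and IFI27, IFIT1, IFIT3 and ISG15 hold 2 each, which overlap in ISG15.

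The element's letters were found in 3.65% of all 27305 promoters in the table and in 2.91% of the 9170 that matched a member by name. Of the 23 interferon genes higher with both hairpins, 17 had a promoter in the table and 13 of those (76.5%) held the letters. Of all 48 members of the interferon list, 39 were matched and 25 (64.1%) held them, so the letters were common in the list as a whole. Of all 264 genes higher with both hairpins, 178 were matched and 17 (9.55%) held them. Once the histone genes, RMRP, RPPH1, TERC and the interferon list were left out, 1 of 119 (0.84%) did. Among the 324 genes lower with both hairpins, 11 of 263 (4.18%) held the letters. The site of the EGR family, GCGTGGGCG, stood in 0.784% of all promoters and 115 of the 9170 matched to a member, in 0 of 178 matched promoters of genes higher with both hairpins and in 1 of 263 (0.38%) of those lower. These matches describe letters in short windows and are not measured binding sites.

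IFI27, a mitochondrial protein and a common marker of interferon exposure, stood at 4.82 FPKM in the control, 134 in shEGR1#8 and 77.7 in shEGR1#9, which are differences of 4.53 and 3.76. IFITM1, a membrane protein that blocks virus entry, stood at 4.04, 61.8 and 33.7 FPKM, differences of 3.64 and 2.78. MX1, a dynamin-like GTPase that traps viral nucleocapsids, stood at 18.2, 139 and 108 FPKM, differences of 2.86 and 2.50. In all 3 genes the control was lowest and shEGR1#8 highest. IFI6 stood at 1.77, 16.7 and 11.1 FPKM, with differences of 2.67 and 2.12. IFIT3, which binds foreign RNA together with its relative IFIT1, stood at 1.21, 11.8 and 7.41 FPKM, differences of 2.54 and 1.93. IFIT1 itself was 0.443 FPKM in the control, 6.69 in shEGR1#8 and 3.18 in shEGR1#9. Both IFIT genes were under 2 FPKM in the control library only. The OAS enzymes, which make the second messenger that activates RNase L, were also higher: OAS3 by 1.91 and 2.13, OAS2 by 1.95 and 1.69 and OAS1 by 1.46 and 1.29. XAF1, a proapoptotic interferon target, stood at 1.32, 9.33 and 8.26 FPKM.

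The transcription factors and regulators of the pathway were lowest in the control library as well. STAT2 (5.65, 13.2 and 12.9 FPKM in control, shEGR1#8 and shEGR1#9) and IRF9 (9.09, 25.8 and 23.1 FPKM), both of which take part in the response to type I interferon, had similar levels in both hairpin libraries. IRF7, which drives interferon gene transcription, stood at 2.52, 12.7 and 14.5 FPKM, differences of 1.96 and 2.14. ISG15, a ubiquitin-like modifier, stood at 32.7, 133 and 91.5 FPKM, and USP18, the protease that removes it, at 3.27, 16.3 and 12.0 FPKM. Of the 23 genes, 18 were higher in shEGR1#8 than in shEGR1#9. Members of the list that moved little included MX2 (45.8, 50.2 and 50 FPKM) and SP100 (40.3, 33.0 and 30.2 FPKM).

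OCI-LY10 has 3 libraries per hairpin and shares none with TMD8, and its libraries were alike in their low short RNA share (0.471 to 0.615% of FPKM). Of 46 interferon members tested there, 35 rose and none fell when both hairpins were averaged against the control (limma, Benjamini-Hochberg adjusted p under 0.05), beside 5.82% and 2.83% of all members tested, with a list median of 0.61. At an unadjusted p under 0.05, limma gave 41 higher and 1 lower. Of the 23 genes higher with both TMD8 hairpins, 22 were tested and 20 rose. MX1 rose from 68.9 ± 3.41 FPKM (SD, n = 3) in the control to 109 ± 5.62 and 131 ± 7.49 in shEGR1#8 and shEGR1#9 (difference 0.78, SE 0.058, limma adjusted p = 0.000209). IFI6 rose from 21.0 ± 0.678 to 74.2 ± 20.9 and 73.2 ± 13.2 FPKM (difference 1.73, SE 0.177, limma adjusted p = 0.000818). IRF7 rose from 4.73 ± 0.901 to 13.4 ± 2.72 and 13.4 ± 0.991 FPKM (difference 1.33, SE 0.129, limma adjusted p = 0.000662). For each of these genes all 6 hairpin libraries lay above all 3 controls. IFI27 and ISG20 did not pass (limma adjusted p = 0.0648 and 0.078), and IFITM1 was below the level needed for the test. In the SUDHL2 libraries 17 of the 23 were at least 2-fold higher with both hairpins, beside 1.11% of that table's genes, and the list's medians were 1.00 and 0.92.

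The levels of the SUDHL2 control library in these genes can be set beside those of TMD8. With all 6 libraries brought to one scale, it stood at least 2-fold above the TMD8 control for 22 of the 23 (95.7%) and nearer to the TMD8 hairpin libraries for 23 (100%). For all 264 genes higher with both hairpins the shares were 58.3% and 74.2%, and for the 187 outside the interferon list, histones, RMRP, RPPH1 and TERC they were 42.2% and 64.7%. Over all members, 3.07% stood at least 2-fold above the TMD8 control. The genes were chosen for a low TMD8 control, which itself places other libraries above it, so nothing is read from these shares alone. MX1 was 276 FPKM as deposited in that control and IFI27 was 737. The TMD8 and SUDHL2 tables are separate, so these levels are given side by side without a test.

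**Figure D3:**
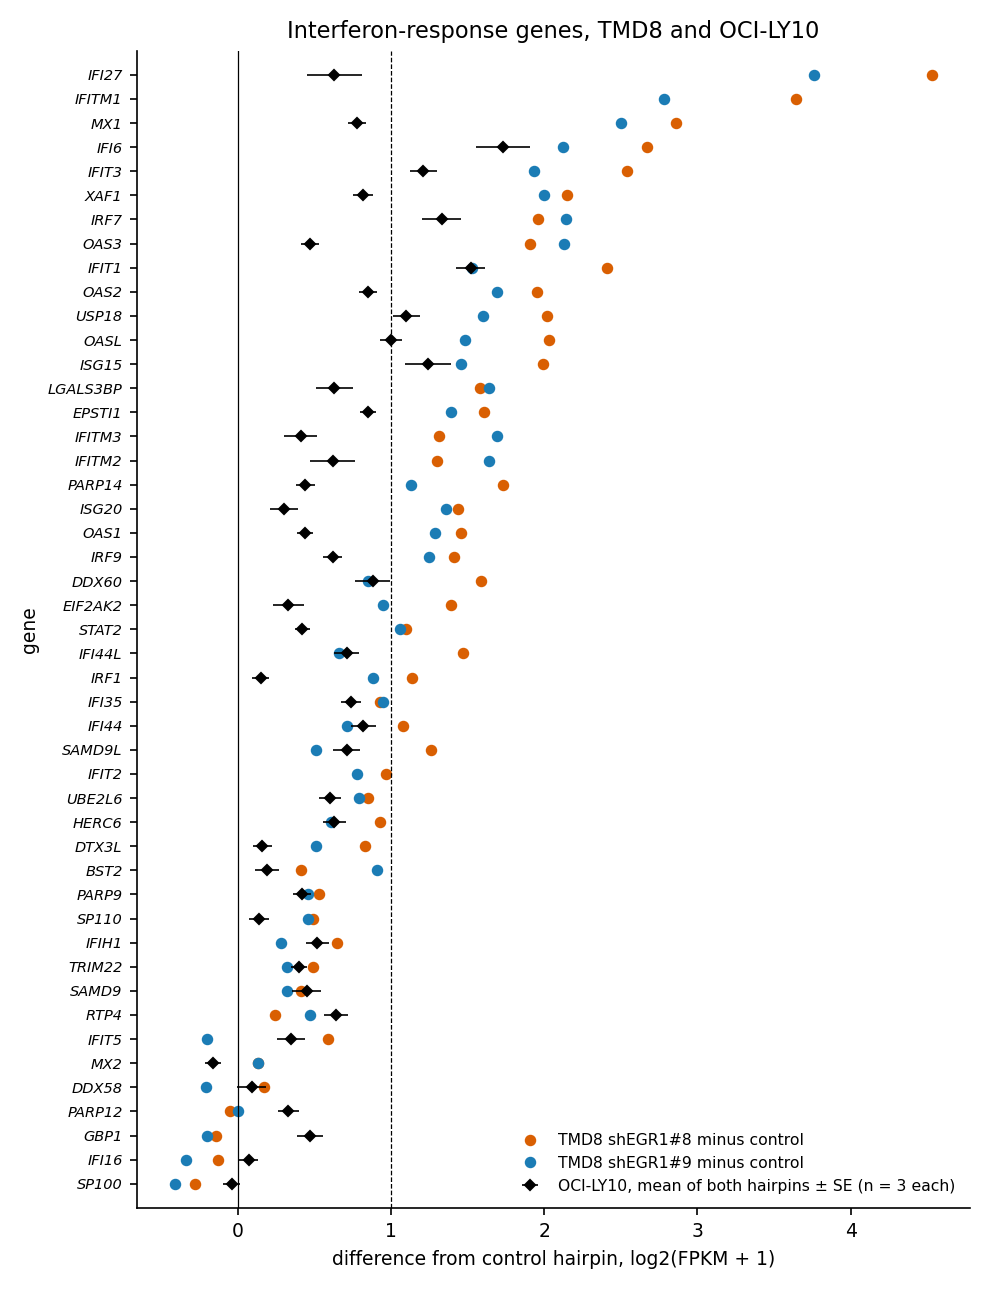
Difference from the control hairpin on log2(FPKM + 1) for the interferon-response members, ordered by their TMD8 mean, with 1 member not shown. Coloured points are the 2 TMD8 hairpin libraries (1 library each), diamonds the OCI-LY10 mean of both hairpins with its SE; in TMD8, 22 of the genes shown lie to the right of the dashed 2-fold line with both hairpins.

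The immediate early genes around EGR1 were less uniform. Of 30 members, 2 were at least 2-fold higher with both hairpins and none lower, beside 2.29% and 2.81% of all members. The list's medians were 0.13 and 0.36. The sign of the shEGR1#8 median turned with the scaling, from -0.08 to 0.34. NR4A1, an orphan nuclear receptor induced by antigen receptor signals, stood at 2.55, 8.37 and 9.75 FPKM in control, shEGR1#8 and shEGR1#9. ZFP36, an RNA-binding protein that speeds the decay of cytokine mRNAs, stood at 24.2, 59.2 and 65.6 FPKM. Both rose in OCI-LY10 too, NR4A1 by 0.65 (SE 0.122, limma adjusted p = 0.0139) and ZFP36 by 0.80 (SE 0.151, limma adjusted p = 0.0141). NAB2, the EGR corepressor, stood at 6.76, 12.5 and 14.2 FPKM, differences of 0.80 and 0.97 on the log2(scaled FPKM + 1) scale, under its 2-fold mark. In OCI-LY10, NAB2 rose by 0.65 (SE 0.0918, limma adjusted p = 0.00444), while EGR1 itself was 10.2 ± 1.93 FPKM (SD, n = 3) in the control and 14.0 ± 5.69 and 15.1 ± 6.61 with the hairpins (limma adjusted p = 0.349). EGR2 stood at 5.14, 7.63 and 8.85 FPKM in TMD8, and NAB1 at 7.23, 7.07 and 4.67, while EGR3 was under 1 FPKM in all 3 libraries. MYC hardly differed, at 115, 107 and 119 FPKM.

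CDKN1A, the gene of the cyclin-dependent kinase inhibitor p21, stood at 26.3, 45.9 and 58.3 FPKM, differences of 0.78 and 1.12. It rose in OCI-LY10 by 1.03 (SE 0.0719, limma adjusted p = 0.000182) and differed by 1.44 and 1.53 in the SUDHL2 libraries. Of the 24 p53 targets that were members, CDKN1A included, 10 stood above the control in both libraries and 10 below. Over all 11529 members, 5353 stood above and 3848 below in both. None of the 24 was 2-fold higher with both hairpins, and 3 were lower, beside 2.29% and 2.81% of all members. The 3 were PMAIP1 (40.8, 15.6 and 18.9 FPKM), CCNG1 (60.9, 25.3 and 28.8) and GADD45A (6.21, 2.05 and 2.57). With equal totals all 3 came under 2-fold, at -0.88, -0.86 and -0.86 for the smaller difference. No call was made on those 3 in OCI-LY10, where GADD45A was below the level tested (PMAIP1 and CCNG1 limma adjusted p = 0.729 and 0.0922).

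For the signalling lists of this lymphoma type, the shares over all members were 2.29% higher and 2.81% lower with both hairpins. Of 36 B-cell receptor and MYD88 genes, PLCG2 alone was at least 2-fold higher with both hairpins, at 46.4, 145 and 213 FPKM. PLCG2 is the phospholipase that couples the receptor to calcium release, and it differed by -0.06 in OCI-LY10 (SE 0.0433, limma adjusted p = 0.401). Of 23 activated B-cell-like lymphoma genes, 2 were higher: TNFRSF13B, the BAFF and APRIL receptor TACI, at 31.5, 68.8 and 69.2 FPKM, and the cyclin CCND2 at 51.6, 142 and 118 FPKM. With FPKM as deposited the smaller TNFRSF13B difference was 0.89, under 2-fold. IRF4, the transcription factor that marks this subtype, stood at 466, 505 and 464 FPKM. PRDM1 stood at 9.54, 9.24 and 8.88 FPKM and BCL6 at 15.6, 21.5 and 18.7.

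Among 36 NF-kB targets, CCND2 was higher and 2 genes were lower by 2-fold with both hairpins, beside 2.29% and 2.81% of all members. BCL2A1, an antiapoptotic BCL2 relative, stood at 302, 95.2 and 85.9 FPKM, differences of -1.66 and -1.80. The chemokine CXCL10, which interferon also induces, stood at 64.3, 21.7 and 15.9 FPKM, below the control where most of the interferon list lay above it. Both genes were highest in the control library. BCL2A1 did not pass in OCI-LY10 (difference -0.26, SE 0.0772, limma adjusted p = 0.0725), and CXCL10 was below the level tested. Of the 34 NF-kB targets tested there, 17 rose and 1 fell, beside 5.82% and 2.83% of all members tested.

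Translation and respiration genes lay below the control as groups, by small amounts. Of 75 cytosolic ribosomal protein genes, 66 were below the control in both libraries, beside 3848 of all 11529 members. At least 2-fold lower with both were 7 of the 75, beside 2.81% of all members, and none was at least 2-fold above. The list's medians were -0.55 and -0.68, and over the scalings they ran from -0.77 to -0.33 and from -0.79 to -0.48. RPL7 stood at 3447, 1220 and 974 FPKM and RPL23A at 2285, 913 and 1013 FPKM (smaller difference -0.97 with equal totals, under 2-fold), although many processed copies of these genes make the assignment of reads uncertain. Mitochondrial ribosomal proteins (64 members, 3 lower and none higher, medians -0.44 and -0.37) and nuclear oxidative phosphorylation genes (49 members, 2 lower and none higher, medians -0.34 and -0.37) lay on the same side. In OCI-LY10 none of the 75 cytosolic ribosomal genes was called in either direction, and the list median was -0.08. At an unadjusted p under 0.05, limma gave 14 lower and 0 higher there. In TMD8 these lists moved beside the control library's other differences, whose part was not tested.

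Cell cycle genes showed a mixed picture. Of 43 mitosis genes, 29 were below the control in both libraries, 4 of them at least 2-fold, and 8 above. Over all 11529 members, 3848 were below the control in both libraries and 5353 above, and 2.81% were at least 2-fold lower with both. CDK1, the mitotic kinase, stood at 142, 52.4 and 39.1 FPKM, and NUF2, a kinetochore protein, at 38.4, 15.3 and 15.1 FPKM. MAD2L1, a spindle checkpoint protein, stood at 124, 36.2 and 36.2 FPKM. HMMR was the fourth, at 56.0, 22.7 and 19.1 FPKM. MKI67, the proliferation marker, went the other way, at 42.1, 92.0 and 70.9 FPKM. In OCI-LY10, 3 of the 43 mitosis genes fell and none rose, beside 2.83% and 5.82% of all members tested. MAD2L1 fell there (limma adjusted p = 0.0463). CDK1, NUF2 and MKI67 were not called there (limma adjusted p = 0.42, 0.131 and 0.745). Of 46 E2F and DNA replication genes none passed 2-fold with both hairpins, and neither did any of 38 MYC and nucleolar genes, whose medians (-0.09 and -0.08) turned sign with the scaling. E2F1 stood at 14.6, 12.0 and 13.7 FPKM. In OCI-LY10, 5 of the 46 E2F and DNA replication genes fell and none rose, beside 2.83% and 5.82% of all members tested. Of the 38 MYC and nucleolar genes, 4 fell there and none rose. At an unadjusted p under 0.05, limma gave 15 lower and 1 higher for the former list, and 12 lower and 1 higher for the latter.

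**Figure D4:**
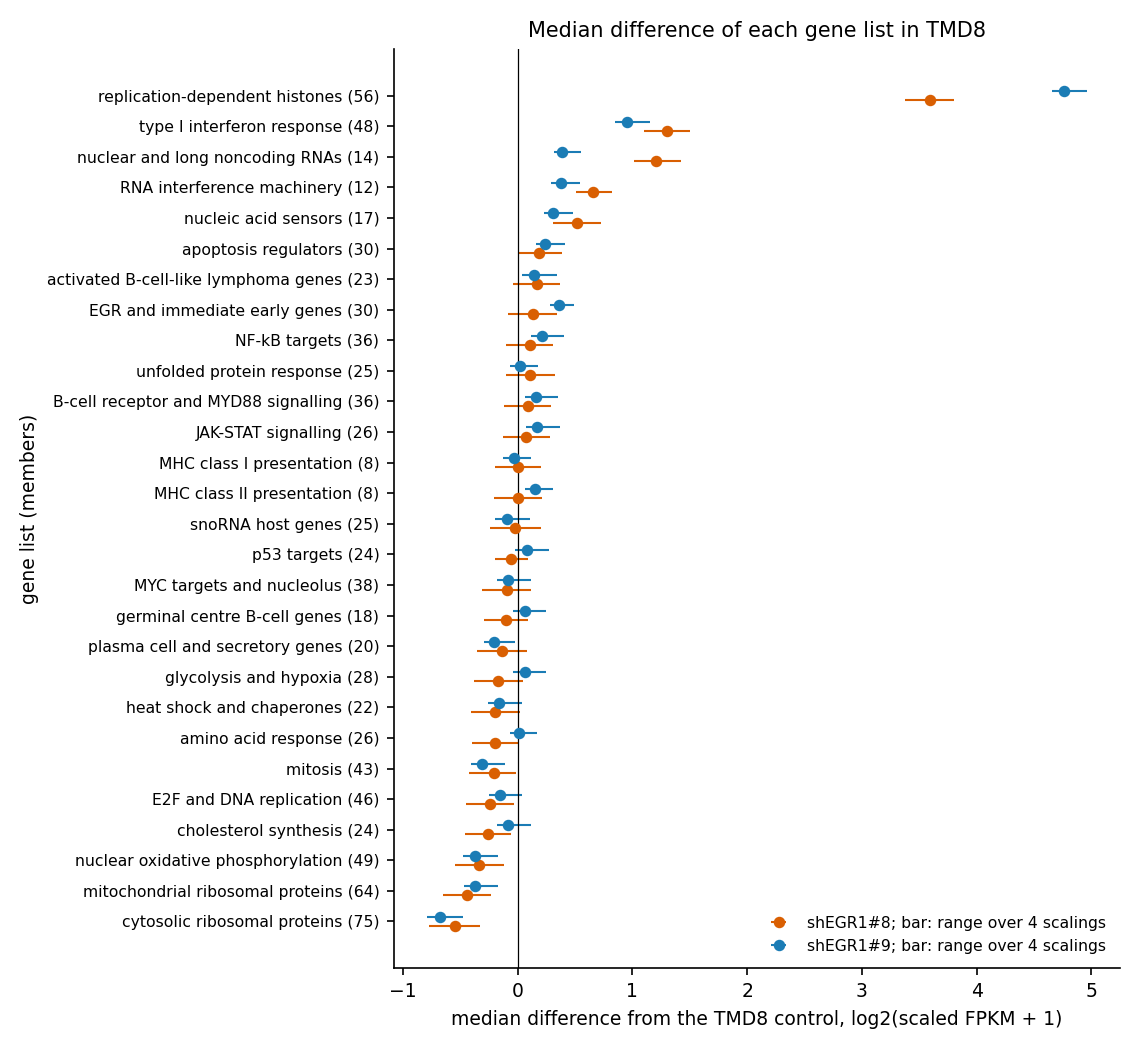
Median difference from the TMD8 control for each gene list with at least 8 members, cell type marker lists left out, on log2(scaled FPKM + 1). The number of members is in brackets. Bars give the range over 4 scalings; the histones (3.59 and 4.76) and the interferon list (1.30 and 0.95) lie highest, and the cytosolic ribosomal proteins (-0.55 and -0.68) lowest.

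The histones were the group farthest from the control. Of 56 members, 51 were at least 2-fold higher with both hairpins and none lower, beside 2.29% and 2.81% of all members. The list's medians were 3.59 and 4.76, and 54 of the 56 were higher in shEGR1#9 than in shEGR1#8. HIST1H1B, a linker histone, stood at 2.63, 114 and 308 FPKM, and HIST1H3B at 2.25, 96.1 and 249 FPKM. HIST1H2BK, which also makes polyadenylated mRNA, stood at 196, 195 and 296 FPKM. In the SUDHL2 libraries, where the control held these RNAs, the medians were -0.43 and -0.07. In OCI-LY10, of 14 histone genes tested, none rose and 1 fell, as at an unadjusted p under 0.05 in limma. The nuclear long RNA MALAT1 stood at 5.90, 167 and 72.9 FPKM, with differences of 4.61 and 3.42 in TMD8 and -0.17 and -0.17 in SUDHL2. MTRNR2L genes, nuclear near-copies of a mitochondrial ribosomal RNA whose reads may be shared, were higher for 7 of 8 members. Without the histone genes, RMRP, RPPH1 and TERC, a set chosen after these values were seen, 210 genes were higher with both hairpins in place of 264.

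Some near-identical genes had values that moved in opposite directions between libraries, and their differences are uncertain. FAM72D stood at 6.94, 0.00133 and 0.00123 FPKM and its near-copy FAM72C at 0.0109, 8.09 and 5.09 FPKM. H3F3A, which has processed copies, stood at 31.3, 0.0598 and 0.0873 FPKM, the largest difference below the control of any member the naming rule covers. Overlapping genes did so too among those farthest apart between the hairpin libraries: MIA stood at 0 in shEGR1#8 and 11.2 FPKM in shEGR1#9, while MIA-RAB4B, the read-through transcript over it, stood at 10.2 and 0.

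Of the 264 genes higher with both hairpins, 144 were tested in OCI-LY10 and 42 of those rose (29.2%), beside 5.82% of all 9605 members tested there. These 42 are 7.51% of the 559 members that rose in OCI-LY10, and 20 of them belong to the interferon list. The count was 27, 28 and 25 without OCI-LY10 control 1, 2 or 3. Outside the interferon list, histones, RMRP, RPPH1 and TERC, 187 genes were higher in TMD8, 109 of them were tested and 22 rose. IL4I1, a secreted amino acid oxidase, was chosen after its values were seen. It stood at 141, 316 and 412 FPKM in TMD8 and rose in OCI-LY10 from 3.88 ± 0.476 FPKM (SD, n = 3) to 13.5 ± 1.12 and 14.1 ± 1.67 (difference 1.60, SE 0.0923, limma adjusted p = 0.000121). DDIT4, an inhibitor of mTORC1, stood at 29.7, 64.5 and 104 FPKM (smaller difference 0.88 with FPKM as deposited, under 2-fold) and rose by 0.51 in OCI-LY10 (SE 0.0702, limma adjusted p = 0.00379). OTOF, a calcium sensor of vesicle fusion, stood at 0.0888, 2.69 and 2.61 FPKM, and ARL10 at 1.95, 10.1 and 8.41 FPKM. Both also rose in OCI-LY10 (limma adjusted p = 0.00549 and 0.033). Chosen after their values were seen, LAG3 (0.627, 3.16 and 3.26 FPKM), a receptor that restrains lymphocytes, and TNFRSF13C (5.99, 20.2 and 26.7 FPKM), the BAFF receptor, belong to the same 22. In the SUDHL2 table, 33 of the 264 (12.5%) were at least 2-fold higher with both hairpins, beside 1.11% of its genes, which is 26.2% of its 126. In all 3 labels 25 genes were higher.

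Of the 324 genes lower with both hairpins, 298 were tested in OCI-LY10 and 24 fell (8.05%), beside 2.83% of all members tested. These are 8.82% of the 272 that fell there, and the count was 13, 9 and 12 without OCI-LY10 control 1, 2 or 3. TAF9B, a subunit of the TFIID transcription complex, stood at 13.3, 1.52 and 2.43 FPKM in TMD8, differences of -2.51 and -2.06. In OCI-LY10 it fell from 17.2 ± 0.876 FPKM (SD, n = 3) to 7.96 ± 1.29 and 8.21 ± 0.492 (difference -1.0, SE 0.087, limma adjusted p = 0.000399). EXOC5, part of the exocyst complex in vesicle docking, stood at 21.9, 5.67 and 4.70 FPKM, differences of -1.78 and -2.0. In OCI-LY10 it fell from 22.9 ± 1.29 FPKM to 9.47 ± 1.84 and 9.60 ± 0.682 (difference -1.19, SE 0.106, limma adjusted p = 0.000427). Of the 24, EXOC5 was the 1 gene at least 2-fold lower with both hairpins in the SUDHL2 table as well, at -1.02 and -1.47. In both genes the 6 OCI-LY10 hairpin libraries lay below all 3 controls.

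Other genes lower in both lines had smaller differences in OCI-LY10. VBP1, a prefoldin chaperone subunit, stood at 67.0, 17.9 and 21.9 FPKM and fell by 0.64 there (SE 0.122, limma adjusted p = 0.0147). FUNDC2 stood at 13.0, 1.82 and 4.45 FPKM, SLC39A8, a zinc and manganese importer, at 21.1, 5.61 and 7.48, and TMEM126B, an assembly factor of respiratory complex I, at 24.5, 8.67 and 6.91. TXN, the redox protein thioredoxin, stood at 334, 122 and 110 FPKM and fell by 0.32 in OCI-LY10 (SE 0.0756, limma adjusted p = 0.0354), and MAD2L1 fell by 0.35 (SE 0.0915, limma adjusted p = 0.0463). PARPBP, a regulator of homologous recombination, stood at 15.1, 4.69 and 5.24 FPKM, and HRSP12, an enzyme that removes reactive imines, at 38.4, 14.4 and 14.5 FPKM. PTMA, the chromatin protein prothymosin alpha, was chosen after its values were seen and has many processed copies. It stood at 3432, 1176 and 1607 FPKM and fell by 0.83 in OCI-LY10 (SE 0.0637, limma adjusted p = 0.000265). In SUDHL2, 5 of the 324 genes (1.54%) were at least 2-fold lower with both hairpins, beside 0.264% of its genes, or 16.7% of its 30. Its control library stood at least 2-fold below the TMD8 control for 213 of the 324 (65.7%) and for 5.19% of all members, but the 324 were chosen for a high TMD8 control, which itself places other libraries below it.

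**Figure D5:**
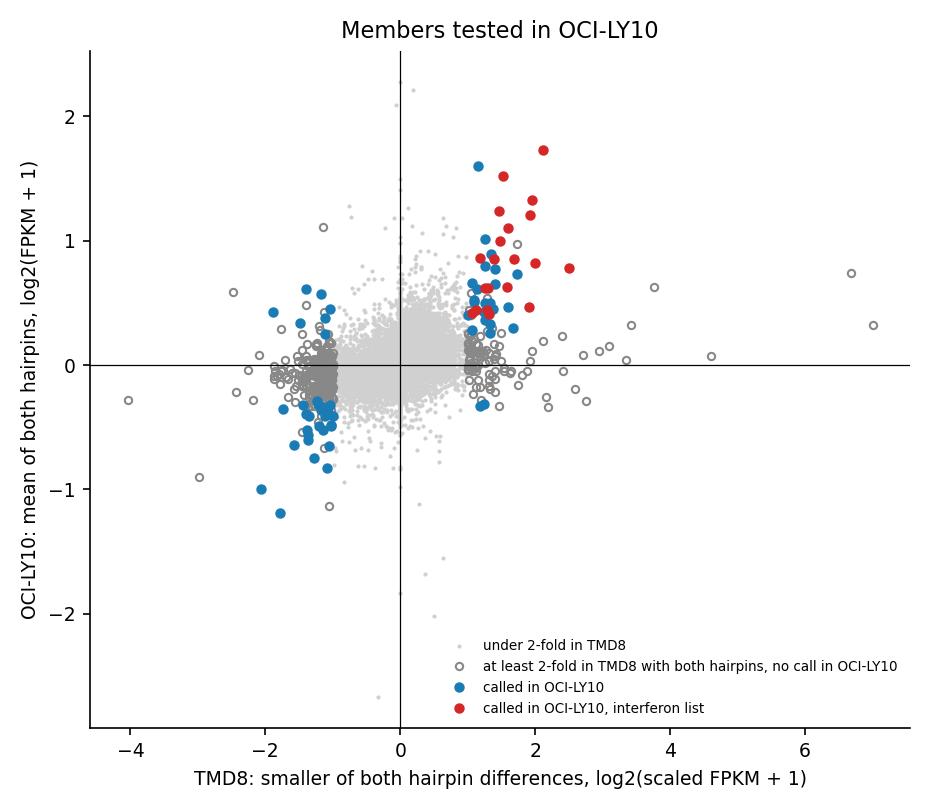
Smaller of both TMD8 hairpin differences (x axis, log2(scaled FPKM + 1)) against the OCI-LY10 mean of both hairpins (y axis, log2(FPKM + 1)) for members tested in OCI-LY10. Filled points are genes at least 2-fold from control in TMD8 and called in OCI-LY10: 42 rose and 24 fell in both, 20 of the former in the interferon list (red), and 9 went opposite ways.

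A few genes went opposite ways in the 2 lines. Of the 144 genes higher in TMD8 and tested in OCI-LY10, 2 fell there, CCND2 and NUDT3, beside 2.83% of all members tested. Of the 298 lower in TMD8 and tested, 7 rose in OCI-LY10, beside 5.82% of all members tested. These 7 were EVI2A, EVI2B, RGS1, LY96, ITM2B, BBS10 and NT5C3A. CCND2 fell in OCI-LY10 from 106 ± 2.21 FPKM (SD, n = 3) to 84.6 ± 4.05 and 83.8 ± 3.53 (difference -0.33, SE 0.0498, limma adjusted p = 0.00571). EVI2A, a membrane protein gene within an intron of NF1, stood at 23.4, 5.66 and 5.43 FPKM in TMD8 and rose in OCI-LY10 by 0.43 (SE 0.0995, limma adjusted p = 0.0313). The difference between the lines was not tested, since TMD8 has no replicates.

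Among the remaining large differences below the control, RGS13, a regulator of G protein signalling typical of germinal centre B cells, stood at 87.0, 23.0 and 20.0 FPKM. TNFRSF17, the plasma cell receptor BCMA, stood at 5.25, 0.397 and 1.27 FPKM. MS4A1, which encodes CD20, was the 1 B cell marker at least 2-fold lower with both hairpins, at 194, 77.0 and 92.0 FPKM. IDI1 of cholesterol synthesis stood at 124, 44.5 and 46.4 FPKM, and CYCS, cytochrome c, at 58.7, 24.0 and 26.0. With equal totals the smaller differences of MS4A1 and CYCS were -0.86 and -0.95, under 2-fold. TPRKB stood at 66.0, 13.8 and 8.81 FPKM, UBE2D1, a ubiquitin-conjugating enzyme, at 17.7, 2.43 and 4.10, and TMEM60 at 28.3, 7.04 and 6.62. None of these was called in OCI-LY10. AGO2, the slicer of RNA interference, and TNRC6B, its partner, were 2 of 12 RNA interference genes at least 2-fold higher with both hairpins, at 6.06, 18.6 and 13.4 FPKM and at 2.30, 6.29 and 5.6 FPKM. The share over all members was 2.29%. With FPKM as deposited the smaller differences were 0.93 for AGO2 and 0.91 for TNRC6B, both under 2-fold. In the SUDHL2 libraries AGO2 differed by -0.01 and 0.04. In OCI-LY10 AGO2 differed by 0.15 and TNRC6B by -0.01 (limma adjusted p = 0.151 and 0.941). None of the 11 RNA interference genes tested there was called.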

How the data were processed

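RNA from TMD8 cells carrying a control hairpin, shEGR1#8 or shEGR1#9 was sequenced (1 library each), and the authors deposited a table of FPKM values per gene. The submitters' processing notes name Bowtie2, HISAT, StringTie and build hg19, without roles. The unit was read from the values. Depth is unknown, because the files give no counts. From 25277 lines, 10 with repeated or split names were left out, as were 278 short RNA genes of at least 1 FPKM. Hairpin columns were scaled to the control by the median ratio over 6655 genes of at least 5 FPKM in all 3 libraries, and differences taken on log2(scaled FPKM + 1), which understates the change of low genes. A difference of 2-fold was used as a description. In OCI-LY10, 10612 genes of at least 1 FPKM in at least 3 of 9 libraries were tested with limma 3.58.1 (trend) on log2(FPKM + 1) as deposited, without scaling, averaging both hairpin contrasts, with Benjamini-Hochberg adjustment over all of them. The labels do not say whether replicates came from separate cultures, so p-values measure the spread between these libraries. The fit was tested on simulated data. Short RNA genes are in that fit. The members and lists were chosen with earlier results of these data known. Named genes are a set fixed by name (EGR1, NAB1, NAB2, EGR2, MYC, E2F1, MKI67, IRF4, BCL6, PRDM1 and CDKN1A), the 15 highest and 15 lowest by the smaller of both differences, 3 per list and direction, 5 per direction between hairpins, 10 per direction shared with OCI-LY10 and the 10 most abundant, leaving out unnamed loci and antisense genes; interferon and other list genes given beside them, such as STAT2, HMMR, MX2 and SP100, were chosen after their values were seen. Promoter letters come from RefSeq windows. In the interferon list, 1 gene is counted but not reported here. In the SUDHL2 table, 430 lines after a joined line were left out. Alternatives were other scalings, pseudocounts of 0.1 and 5, other level filters, a 1.5-fold threshold and refits of OCI-LY10. Python 3.11.15 and R 4.3.3 were used.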

Additional observations from a re-analysis of the deposited data

Results flagged for a closer look

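CCND2 stood above the control with both TMD8 hairpins (smaller difference 1.18), while all 6 OCI-LY10 hairpin libraries lay below all 3 controls. EVI2A stood below the control with both TMD8 hairpins (smaller difference -1.88), while all 6 OCI-LY10 hairpin libraries lay above all 3 controls. The difference between the lines was not tested for either gene. Short RNA genes, which the comparison leaves out, took 62.1% of all FPKM in shEGR1#8 and 58% in shEGR1#9, above the 36.3% of the control library. Genes named MIR with a number or MIRLET made up most of that share.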

How the results depend on the processing

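No alternative turned the direction of any of the 92 named genes past 2-fold, though 25 of them fell under 2-fold in at least 1 of 5 alternatives (with a pseudocount of 5 these include NR4A1, TNFRSF17, OAS3, OTOF, ARL10, PARPBP and FUNDC2). The counts moved more. With FPKM as deposited, 835 genes were lower with shEGR1#8 and 553 with both. With equal totals, 262 were lower with shEGR1#8, 793 higher and 353 lower with shEGR1#9, and 442 higher and 149 lower with both. A pseudocount of 0.1 gave 1492 higher and 696 lower with shEGR1#8, 1109 higher with shEGR1#9, 749 higher with both and 893 apart between hairpins. A pseudocount of 5 gave 225 and 204 with shEGR1#8, 138 and 294 with shEGR1#9, 105 and 155 with both (higher, then lower) and 68 between hairpins. A 1.5-fold threshold gave 2253 and 1465, 1866 and 1741, 1122 and 1110, and 1610 in the same order. At 5 FPKM or more in any library, 454 were higher with shEGR1#8 and 140 differed between hairpins, and with a mean of at least 1 FPKM 240 did. Left-out OCI-LY10 libraries gave 25 to 46 shared genes that rose and 9 to 31 that fell, and TMD8 as deposited gave 39 that fell. With the replicate block in OCI-LY10 the counts were 40 and 25. Deviations of same-numbered libraries correlated at 0.134 to 0.26 between the hairpins but at -0.188 to 0.0597 between control and hairpin, so the numbers were not taken to pair all libraries. The causes were not tested. With 1 library per hairpin, no TMD8 difference can be set against a replicate spread.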
